A study of Homo sapiens with 14 samples.

Results

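Nascent transcription of untreated A549 cells is described here gene by gene, as counts of nascent RNA reads over the exons of each annotated gene. Such a level is not a rate of transcription. The members are the 2 libraries labelled untreated, out of 14 libraries in the series, taken through the column names of the authors' gene count table. No treated library enters any value. Of 58780 annotated genes in that table, 35991 had at least 1 count in either untreated library.

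A549 is an established human lung adenocarcinoma line with epithelial character. Both libraries came from cells that carry the 15 min label and 0.01% DMSO, the vehicle that all groups share, and that received neither arginine methyltransferase inhibitor nor dexamethasone. The other groups of the series, which were not used, received GSK591 or MS023 at 1 µM, with or without dexamethasone at 100 nM. Per the labels' protocols, permeabilized cells underwent a 5 min run-on reaction. The labels do not say whether the libraries came from separate cultures, so the spread between them may be technical.

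Precision run-on sequencing (PRO-seq) lets engaged RNA polymerases add labelled nucleotides in permeabilized cells, and the labelled RNA is then purified and sequenced. The method thus reads RNA in the act of being made, by RNA polymerase I at ribosomal DNA, by RNA polymerase II at protein-coding and most long noncoding genes, by RNA polymerase III at small RNAs such as tRNA and 7SL, and by the separate mitochondrial polymerase. Stable RNA that is abundant in total RNA is not labelled in the reaction, so levels here are not those of steady-state mRNA.

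Libraries 1 and 2 held 9606938 and 9343048 counts, within the series' range of 5768312 to 9606938. Outside the mitochondrial chromosome they held 4414677 and 4317781 counts, and these totals are the denominator of counts per 1000000 counts (CPM) and of CPM per kilobase of exon (RPKM) below. A gene with 0 counts may still have stood at up to 0.680 CPM in library 1 and 0.695 CPM in library 2, the value of 3 counts, which covers counting error only. On log2(CPM + 0.5) the libraries were correlated across 14761 genes, fewer than the 22486 called detected below. Pearson's r was 0.986 and Spearman's rho was 0.991. Genes are not independent replicates, so these values describe the pair only. Values below are mean ± SD over the 2 libraries, and no groups are tested against each other.

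Reads on exons that several genes share were not counted. All 1139 genes whose exons had no base free of another gene on the same strand stood at 0 in both libraries, and so did all 755 genes whose remaining exon bases were covered by genes of the opposite strand. Counting was thus blind to strand, and sense and antisense transcription cannot be told apart. These 1894 genes are left out as uncountable. They include RN7SK, which restrains the elongation factor P-TEFb, RN7SL1, an RNA of the signal recognition particle, and RPPH1, the RNA of ribonuclease P. EEF1G, a translation elongation factor, kept only 2 free exon bases of 2716 and RMRP, the RNA of a related ribonuclease, 4 of 268, so their 0 counts are not informative either.

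The mitochondrial chromosome took more counts than all nuclear genes together, at 54.0% of counts in library 1 and 53.8% in library 2 (53.9% ± 0.18). Protein-coding genes followed with 32.0% and 32.6%. Of the counts outside the mitochondrial chromosome, protein-coding genes held 70.2% ± 0.68, a stretch of ribosomal DNA on chromosome 21 held 9.86% ± 0.83, long noncoding genes 9.13% ± 0.04 and nuclear copies of mitochondrial genes 7.57% ± 0.09. Other pseudogenes held 2.51% ± 0.01 and small RNA genes 0.77% ± 0.01. The ribosomal DNA stretch was the class whose share differed most between the libraries, with 10.4% in library 1 and 9.27% in library 2. Leaving out genes that share exon sequence put the ribosomal DNA share at 19.1%, the copies at 4.68%, protein-coding genes at 64.3% and long noncoding genes at 7.20%.

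**Figure D1:**
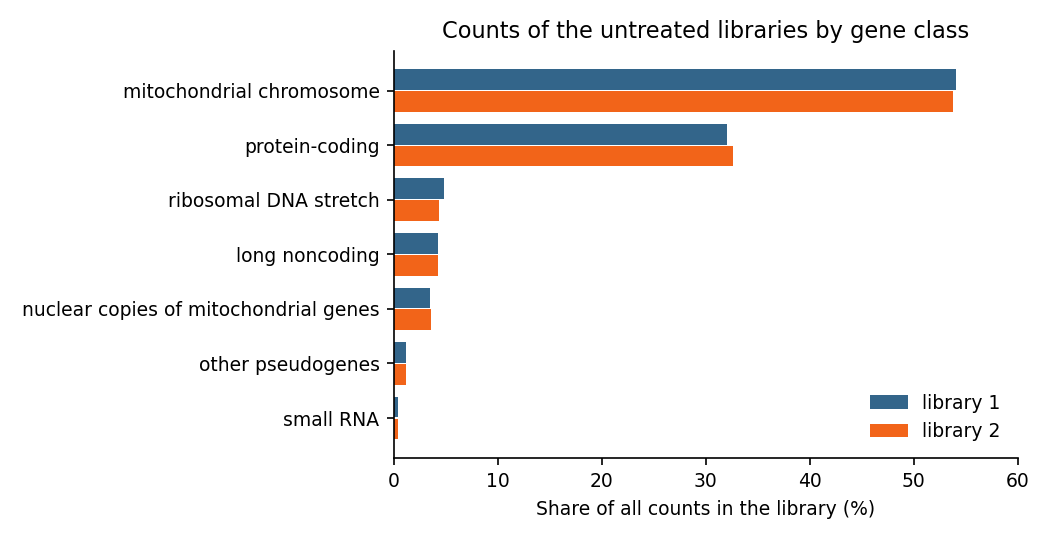
Share of all counts (%, horizontal axis) taken by each gene class in the untreated libraries 1 and 2 (bars). The mitochondrial chromosome takes 54.0% and 53.8%, protein-coding genes 32.0% and 32.6%, and no other class reaches 5%.

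Human mitochondrial DNA is transcribed from both strands as long precursors that carry 2 rRNAs, 13 mRNAs and 22 tRNAs, and the tRNAs punctuate the larger genes and are cut out of the precursor. The mRNAs held 65.3% ± 0.07 of mitochondrial counts, the rRNAs 34.2% ± 0.03 and the tRNAs 0.44% ± 0.04. Levels on this chromosome are given as counts per kilobase per 1000000 mitochondrial counts. MT-RNR2, the large rRNA (positions 1671 to 3229, plus strand), was highest of the 37 genes, at 162382 in library 1 and 158654 in library 2. MT-RNR1, the small rRNA, followed at 93161 and 99701.

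Per kilobase, the means of the 13 mRNAs lay between 22974 and 76221. MT-ND1, a complex I subunit and the first mRNA after the rRNAs, had 74029 and 78413. The cytochrome oxidase subunit genes MT-CO2 and MT-CO3 had means of 68610 ± 2661 and 68146 ± 2417. MT-ND5, far downstream at positions 12337 to 14148, still had 72126 and 62946, so levels did not decline steadily with position. Its share of mitochondrial counts was 13.1% in library 1 and 11.4% in library 2. MT-ND6, the only mRNA annotated on the other strand, had 38154 ± 2033, beside MT-ND3 with 34437 ± 1052. Reads of both strands were counted for each gene, so the value of MT-ND6 is not the level of its own strand. MT-ATP8, which overlaps MT-ATP6, was lowest at 22974 ± 533.

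The 22 tRNA genes spanned from 1 count to 12492 counts. MT-TP, which no annotated gene follows, had 10346 and 12492 counts. MT-TK, which lies 25 bases after MT-CO2, had 4307 and 4386. The neighbours MT-TN and MT-TC, 31 bases apart at the origin of the other strand's replication, had 2312 and 2369, and 1992 and 2155. The 6 tRNA genes with a gap of at least 10 bases on either side held 0.41% ± 0.04 of mitochondrial counts and the other 16 held 0.028%, with 1 to 679 counts each. MT-TF departs from that split, since 576 bases without a gene precede it and it had 34 and 49 counts. Reads that touch neighbouring genes were not counted, and the part of this rule in the tRNA counts was not tested.

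**Figure D2:**
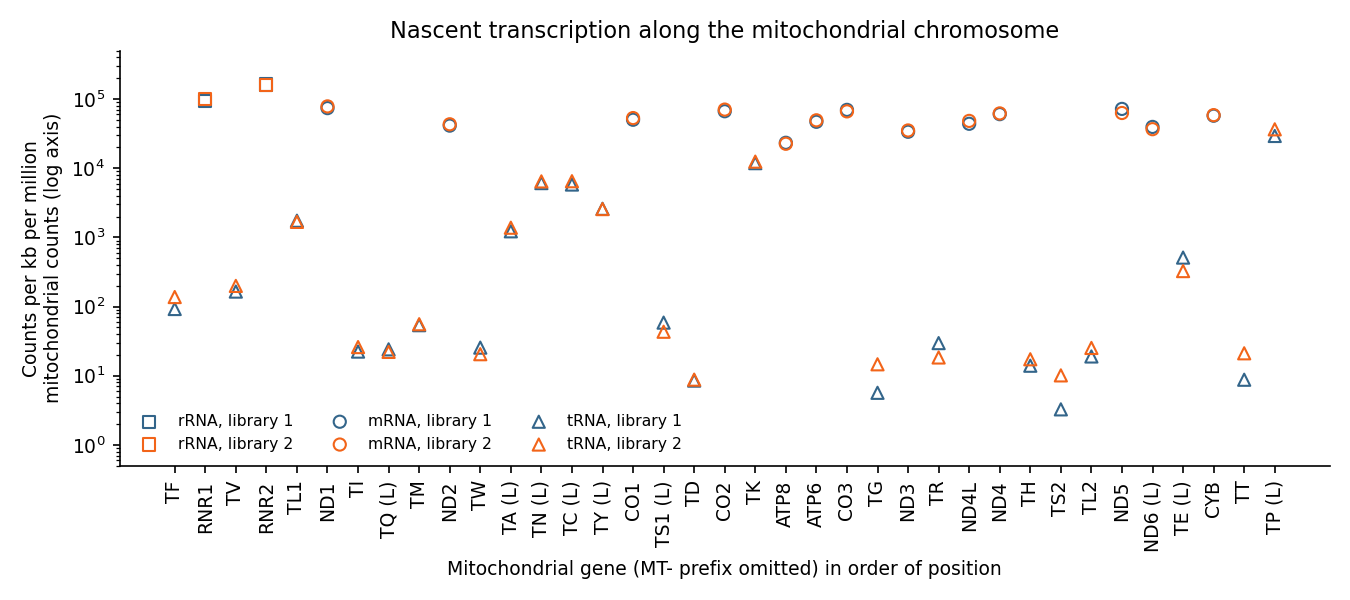
Counts per kilobase per 1000000 mitochondrial counts (log axis) of the 37 mitochondrial genes in order of position, with squares for rRNA, circles for mRNA, triangles for tRNA, and (L) for genes annotated on the minus strand; colours mark the libraries. The rRNAs and mRNAs lie between 22597 and 162382, and the tRNAs scatter from 3.26 to 36556.

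Genes that are near-identical to mitochondrial or ribosomal sequence took a large share of the nuclear counts, and the origin of their reads is uncertain. A cluster of 7 such copies on chromosome 1 (629062 to 634922) held 92.1% and 92.6% of the counts of all 407 nuclear copies. MTCO1P12, a copy of the cytochrome oxidase gene MT-CO1 in that cluster, had 118350 and 115237 counts, and MTATP6P1 had 57333 and 61651. MTRNR2L8 on chromosome 11 and MTRNR2L12 on chromosome 3, annotated as protein-coding but copied from MT-RNR2, had 2105 ± 8.9 and 2000 ± 125 CPM, more than any other protein-coding gene outside the mitochondrial chromosome. The 20 genes of the ribosomal DNA stretch on chromosome 21 (8197620 to 8439975) were all detected. The 4 copies annotated there as RNA5-8SN2, the 5.8S rRNA, each had 14347 to 14858 counts in library 1 and 11888 to 12338 in library 2. The 4 lincRNA genes of 923 exon bases annotated on its minus strand had 75769 to 90094 counts in library 1 and 64402 to 76660 in library 2. These counts hold reads of either strand. In the same stretch the microRNA gene MIR3687-1 went the other way, with 636 counts in library 1 and 772 in library 2, as did the 4 genes named RF01518. Copies this alike cannot be told apart by reads, so their values are not those of single loci.

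Of 56790 countable genes outside the mitochondrial chromosome, 22486 (39.6%) reached 1 CPM in both libraries, which is called detected below. Among 19615 countable protein-coding genes, 14423 (73.5%) were detected and 2579 had no count in either library. The median protein-coding gene stood at 3.18 RPKM, the 75th percentile at 8.89, the 90th at 19.6 and the 99th at 80.5. Transcription was spread over many genes. With genes copied from mitochondrial sequence left out, the 10 protein-coding genes with most counts held 1.35% of the remaining protein-coding counts, the first 100 held 8.24% and the first 1000 held 33.9%. Among noncoding classes, 1631 of 7549 countable lincRNA genes (21.6%), 2336 of 5248 antisense genes (44.5%) and 1515 of 9854 processed pseudogenes (15.4%) were detected. Counting was blind to strand, so a gene that lies within an intron of another gene can take reads of that gene. The part of such reads in these shares was not tested. All 59 genes on unplaced scaffolds were listed at 0.

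Genes with more exon sequence were detected more often and had lower levels per kilobase of exon once detected. Among protein-coding genes that share no exon sequence, 172 of 789 with up to 1000 exon bases were detected, with a median of 12.8 RPKM among those detected. Of 1618 genes with over 8000 exon bases, 1359 were detected, with a median of 3.56 RPKM. By the span from start to end, the median of detected genes was 14.2 RPKM up to 5000 bases and 1.93 RPKM over 300000 bases. Detection itself needs fewer reads per kilobase in a long gene, so the medians of detected genes are not those of all genes. Polymerases within introns lie outside the exons to which these levels refer. Where the reads lie along the exons is not given by these counts.

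Chromosomes differed in pooled level, that is all protein-coding counts over all protein-coding exon length. Chromosome 17 was highest at 12.7 ± 0.08 RPKM, followed by chromosome 19 at 11.6 ± 0.05 and chromosome 16 at 9.97 ± 0.09. Chromosomes 4 and 13 were lowest, both at 2.97, and chromosome 18 stood at 3.20 ± 0.06. The lowest 2 do not differ beyond their spread, with 2.94 and 3.00 on chromosome 4 against 2.93 and 3.01 on chromosome 13. Gene copy number of the line was not measured here.

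Apart from MTRNR2L12, replication-dependent histone genes led the protein-coding genes by level, among those with at least 500 exon bases and none shared. These intronless genes are switched on in S phase and encode the bulk of chromatin's histones. Of 69 countable members of the histone clusters, 56 were detected (81.2%, beside 73.5% of all protein-coding genes) and 55 lay above the protein-coding median. Their median was 171 RPKM in library 1 and 180 in library 2. HIST2H2AA3 and HIST2H2AA4, near-identical twins on chromosome 1 whose reads cannot be told apart, had 859 ± 22.3 and 850 ± 9.3 RPKM. Linker histones were next. HIST1H1C (chromosome 6, 26055787 to 26056428) had 705 and 785 RPKM, HIST1H1E (26156354 to 26157107) had 655 and 692, and HIST1H1D (26234268 to 26234933) had 547 and 585. The order of these linker histones was the same in both libraries.

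Outside the histones and MTRNR2L12, the highest levels by the same rule were those of ID1, an inhibitor of helix-loop-helix transcription factors (chromosome 20, 31605283 to 31606515), with 502 and 512 RPKM, and of FTL, the ferritin light chain (chromosome 19, 48965301 to 48966878), with 459 and 391. HIST1H2AI, a histone H2A gene, followed with 366 and 319, and AKR1B10, an aldo-keto reductase (chromosome 7, 134527592 to 134541408), with 337 and 287. The ranking by CPM favours long genes. After the mitochondrial copies it is led by PLEC, a giant cytoskeletal linker with 1243 and 1315 CPM. CACNG8 with 929 and 1014, and the keratin gene KRT7 with 932 and 1000, come next. Both CACNG8 and KRT7 share exon sequence with another gene. The CPM ranking also holds CYP24A1, the vitamin D catabolic enzyme, with 979 and 909 CPM.

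The promoters of the top genes that had an entry are printed here to show the core element around their starts. Each runs from 250 bases before to 50 after the RefSeq start (build GRCh38.p14), 5′ to 3′ on the gene's strand, with the word TATAAA in capitals where it lies between 45 and 16 bases before the start.
HIST1H1E (chr6:26156079-26156378, plus strand): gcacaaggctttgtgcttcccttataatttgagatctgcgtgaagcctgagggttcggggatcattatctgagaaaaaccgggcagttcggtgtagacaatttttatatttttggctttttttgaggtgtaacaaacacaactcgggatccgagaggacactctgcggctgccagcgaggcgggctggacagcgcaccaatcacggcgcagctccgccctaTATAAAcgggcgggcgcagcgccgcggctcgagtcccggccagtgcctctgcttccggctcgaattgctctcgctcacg
HIST1H1D (chr6:26234938-26235237, minus strand): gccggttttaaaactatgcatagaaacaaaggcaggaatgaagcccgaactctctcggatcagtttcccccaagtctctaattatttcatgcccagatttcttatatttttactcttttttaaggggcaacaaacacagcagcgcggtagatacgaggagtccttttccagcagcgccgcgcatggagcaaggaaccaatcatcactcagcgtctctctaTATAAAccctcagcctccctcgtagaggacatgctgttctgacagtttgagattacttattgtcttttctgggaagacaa
ID1 (chr20:31605039-31605338, plus strand): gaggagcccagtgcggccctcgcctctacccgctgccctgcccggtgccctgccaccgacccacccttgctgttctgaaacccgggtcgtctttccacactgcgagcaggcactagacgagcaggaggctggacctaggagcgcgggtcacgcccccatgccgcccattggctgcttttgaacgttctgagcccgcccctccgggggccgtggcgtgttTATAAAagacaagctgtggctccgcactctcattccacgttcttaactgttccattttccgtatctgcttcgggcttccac
HIST1H2AI (chr6:27807923-27808222, plus strand): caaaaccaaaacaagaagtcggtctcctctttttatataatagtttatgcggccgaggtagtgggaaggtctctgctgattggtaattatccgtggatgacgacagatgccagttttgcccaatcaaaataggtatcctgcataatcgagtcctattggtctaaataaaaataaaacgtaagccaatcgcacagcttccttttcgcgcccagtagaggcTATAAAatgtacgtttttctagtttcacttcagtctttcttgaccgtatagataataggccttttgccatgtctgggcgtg
FTL (chr19:48965059-48965358, plus strand): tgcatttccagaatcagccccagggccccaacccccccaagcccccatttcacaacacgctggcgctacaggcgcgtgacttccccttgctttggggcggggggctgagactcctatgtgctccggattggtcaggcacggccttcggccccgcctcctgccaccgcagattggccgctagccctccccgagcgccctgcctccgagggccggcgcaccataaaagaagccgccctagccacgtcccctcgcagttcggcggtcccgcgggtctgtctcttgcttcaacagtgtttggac
HIST1H1C (chr6:26056421-26056720, minus strand): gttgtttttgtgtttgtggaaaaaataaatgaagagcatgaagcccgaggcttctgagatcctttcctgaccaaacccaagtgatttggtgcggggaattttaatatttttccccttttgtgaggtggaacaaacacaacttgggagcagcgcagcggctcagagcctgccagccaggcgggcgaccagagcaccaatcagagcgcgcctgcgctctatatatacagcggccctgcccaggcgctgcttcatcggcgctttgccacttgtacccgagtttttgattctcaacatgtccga
In HIST1H1E the word began at position -29, in HIST1H1D at -30, and in ID1 and HIST1H2AI at -31. FTL and HIST1H1C did not hold these letters in that window. Only the exact word was searched, so near matches to it were not marked. Over the whole printed promoter, ID1, FTL and HIST1H1E had 22, 23 and 25 CG pairs. HIST1H1C had 15, HIST1H2AI 13 and HIST1H1D 11. The median over the 8601 promoters tallied below was 21.

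Promoter letters were tallied for 8601 of 10614 protein-coding genes (81.0%) that share no exon sequence, chromosome 8 left out. CG pairs are the sites of DNA methylation and are enriched at promoters of widely expressed genes, while a TATA box sets a focused start at a minority of genes. The median promoter held 3 CG pairs among genes with 0 counts, 10 among genes above 0 and under 1 RPKM, 25 from 1 to 5 RPKM, 27 from 5 to 20, and 25.5 at 50 RPKM and above. The share with TATAAA on the gene's strand in the window had a different shape, high at both ends. It was 11.2% (170 of 1514) at 0 counts, 6.63% under 1 RPKM, 2.05% from 1 to 5, 1.17% from 5 to 20, 3.13% from 20 to 50 and 20.7% (38 of 184) at 50 and above. Histone genes made up 33 of those 184, and without them the top share was 9.93%. Among the 48 matched histone genes, 29 held the word (60.4%). The reverse letters TTTATA in the same window were found in 0.90% of the 8601 promoters. Their share was also higher at both ends, though lower than that of TATAAA in each class. It was 1.72% at 0 counts, 0.39% from 5 to 20 RPKM, 0.17% from 20 to 50 and 3.26% (6 of 184) at 50 and above. TATAAA was found in 4.85% (417) of the 8601 promoters. Over all 34961 promoters of the table, a different set, TATAAA was found in 2.38% and TTTATA in 0.80%. A match is a run of letters and not a measured site.

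**Figure D3:**
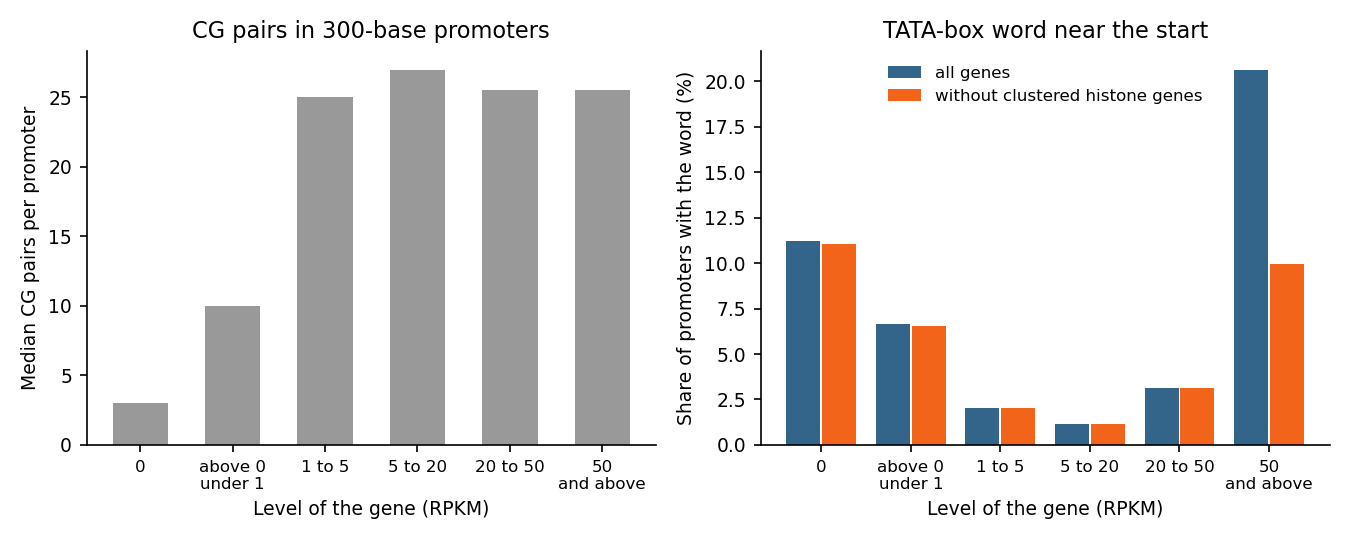
Left, median number of CG pairs in the 300-base promoter; right, share of promoters (%) with the TATA-box word 45 to 16 bases before the start, for protein-coding genes binned by mean level (RPKM, horizontal axes), with all genes and without clustered histone genes. CG pairs rise from 3 to 27 and then level off, and the word is found in 11.2% of genes at 0, 1.17% from 5 to 20 RPKM and 20.7% at 50 and above.

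Markers of epithelium were transcribed at high level, with gaps. Of 11 epithelial markers 9 were detected (81.8%, beside 73.5% of all protein-coding genes). KRT7 and others, 7 of the 11 in all, share exon sequence with another gene. The keratin genes KRT7 (236 ± 11.7 RPKM), KRT8 (94.6) and KRT18 (92.3), and ELF3, an epithelial transcription factor (106), were far above the protein-coding median of 3.18. CDH1, which encodes E-cadherin, had 16 and 23 counts and EPCAM 28 and 24. The epithelial splicing factor ESRP1 had no count, and GRHL2, an epithelial transcription factor, 1 in each library. All 8 mesenchymal markers were detected, led by the intermediate filament gene VIM with 834 and 854 counts (37.5 RPKM), SNAI1 (14.6 RPKM) and FN1 (10.4 RPKM), and ZEB1, a repressor of epithelial genes, had 77 and 90 counts.

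Alveolar genes were transcribed unevenly. Of 11 markers of alveolar type 2 cells, the surfactant-making cells of the lung, 6 were detected (54.5%, beside 73.5% of all protein-coding genes). LPCAT1, a surfactant lipid enzyme, had 359 and 340 counts, the lipid transporter gene ABCA3 176 and 167, and the surfactant protein gene SFTPB 125 and 112. SFTPA1, SFTPA2 and the phosphate transporter gene SLC34A2 were at 0 in both libraries. NKX2-1, the lineage factor of lung epithelium, had 3 and 1 counts. Of 12 lung lineage factors 11 were detected (91.7%), all but NKX2-1. ID2 (118 RPKM), CEBPA (35.8), FOXA1 (25.2) led that list, and the endoderm factor HNF4A had 5.26 RPKM. Of 7 type 1 markers 4 were detected, led by CAV1 (19.2) and AGER (17.5), with PDPN, HOPX and CLIC5 at 0.

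Markers of fibroblasts, leukocytes, hepatocytes and endothelium were mostly near 0. For fibroblasts 1 of 7 was detected (14.3%, beside 73.5% of all protein-coding genes). COL1A1 had 60 and 54 counts, and LUM and DCN were at 0. Of 8 leukocyte markers 2 were detected, CD14 and CD68, while PTPRC had 1 and 0 counts and CD3E, CD3D and MS4A1 none. Of 6 hepatocyte markers only APOA1 was detected, with 7 and 9 counts. Of 6 endothelial markers CLDN5 alone was detected, at 311 and 241 counts (18.4 RPKM), while VWF had 0 and 2. The lists differ in size. Summed over its genes, the fibroblast list came to 1.77 RPKM in library 1 and 1.40 in library 2, the hepatocyte list to 1.11 and 1.93, and the leukocyte list to 6.11 and 5.29. The endothelial list came to 16.7 RPKM in library 2, of which CLDN5 held 16.3, and in library 1 CLDN5 alone held 20.5. The 11 epithelial markers came to 577 and 598. Other non-epithelial lists came to more than the fibroblast, hepatocyte and leukocyte lists. Mesenchymal markers came to 74.3 and 77.0, neuronal markers to 33.9 and 34.6, and erythroid markers to 20.0 and 26.4.

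Markers of airway and other cells gave a mixed pattern. Of 5 club cell markers 1 was detected (20.0%, beside 73.5% of all protein-coding genes). SCGB1A1, the main club cell secretory protein gene, had 2 and 0 counts. Of 6 goblet markers 5 were detected (83.3%), with the mucin gene MUC5B at 445 and 456 counts and MUC5AC at 210 and 220. All 6 ciliated markers were detected, led by CCDC78 with 1015 and 1030 counts, though FOXJ1, the ciliogenesis factor, had only 47 and 39 and CCDC78 shares exon sequence with another gene. Of 5 basal markers 2 were detected, with KRT15 at 109 and 128 counts and KRT14 at 0. Some genes named as markers of distant cell types were detected as well. The neuronal list had 5 of 6 detected (83.3%), with RBFOX3 at 291 and 265 counts and SYT1 at 141 and 127, and STMN2 at 0. The erythroid list had 3 of 5, with the alpha globin gene HBA1 at 41 and 53 counts and the beta globin gene HBB at 0.

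Targets of NRF2, the transcription factor that drives antioxidant genes when its inhibitor KEAP1 is lost, were transcribed throughout: all 24 were detected and all 24 lay above the protein-coding median. A549 is known for defective KEAP1, and its part in these levels was not tested. All genes of the actin and tubulin cytoskeleton list (16 of 16) and of the heat shock chaperone list (12 of 12) also lay above that median. The median of the NRF2 list was 50.2 RPKM in library 1 and 48.9 in library 2. For all protein-coding genes it was 3.18, and 73.5% of them were detected. After FTL and AKR1B10 came TXNRD1, thioredoxin reductase, with 2952 and 3008 counts (102 RPKM), FTH1, the ferritin heavy chain (98.4), OSGIN1 (84.9) and PGD of the pentose phosphate pathway (81.5). AKR1C1 and AKR1C2, near-identical paralogs whose reads are hard to separate, had means of 60.8 and 56.4 RPKM. AKR1C1 had 67.1 in library 1 and 54.5 in library 2, and AKR1C2 had 62.1 and 50.6. AKR1C1, AKR1C2, FTL and AKR1B10 were among the genes called different between the libraries below, each higher in library 1. KEAP1 and NFE2L2, which encodes NRF2, were themselves at 44.8 and 16.8 RPKM.

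Growth and stress genes were transcribed in the untreated cells. Of 16 immediate early genes 15 were detected (93.8%, beside 73.5% of all protein-coding genes), with a median of 52.1 RPKM. DUSP1, a phosphatase that switches off MAP kinases, led with 270 and 265 RPKM, followed by IER3 (201), JUNB (124), ZFP36 (110) and MYC (96.0). EGR1 and ATF3 of the same list stayed low, at 29 and 33 counts and at 26 and 50. All 12 genes of the p53 pathway were detected, led by GDF15 (114 RPKM), TP53I3 (105) and BBC3 (79.1), and CDKN1A stood at 14.5. Of 10 genes of the glucocorticoid receptor pathway 9 were detected. The receptor gene NR3C1 was highest, at 15.4 and 16.7 RPKM, the target genes TSC22D3, PER1 and SGK1 stood at 11.0, 8.43 and 8.22, FKBP5 at 1.13, and HSD11B1, which makes active cortisol, at 0.

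Housekeeping groups were detected almost in full, beside 73.5% of all protein-coding genes. Of 85 countable cytosolic ribosomal protein genes 84 were detected, with a median of 41.9 RPKM, led by RPS19 (180) and RPS16 (163). All 16 genes of the actin and tubulin cytoskeleton were detected, with a median of 57.4 RPKM, led by TMSB10 (272) and ACTG1 (222). For glycolysis all 16 were detected (median 22.8), led by GAPDH at 227 and 240 RPKM. The proteasome core (14 of 14, median 13.7), cholesterol synthesis and uptake (17 of 17, 11.5), tRNA synthetases (35 of 35, 7.08) and nuclear-encoded complex I subunits (37 of 37, 8.06) followed at lower levels. Heat shock chaperones were all detected (12 of 12, median 34.8), led by HSP90AB1 with 855 and 1026 counts, and translation factors all but EEF1G (14 of 15, median 20.2).

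The transcription machinery spanned a wide range within each complex. Among all protein-coding genes, 73.5% were detected. All 12 RNA polymerase II subunit genes were detected, with a median of 15.4 RPKM, from POLR2L (68.3) and the catalytic subunit gene POLR2A (41.0 and 40.5) down to POLR2K (1.41). Among pausing and elongation factors 19 of 20 were detected, led by HEXIM1, an inhibitor of P-TEFb (103 and 96.8 RPKM), PAF1 (65.3) and CDK9, the P-TEFb kinase (29.9). All 15 genes of mitochondrial transcription and RNA processing were detected, with a median of 8.97 RPKM, including the mitochondrial polymerase gene POLRMT (20.6) and its activator TFAM (8.58). All 33 Mediator subunits were detected at a median of 5.09, all 14 subunits of RNA polymerases I and III at 8.79, and 14 of 16 initiation factors at 6.00.

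Of 15 genes of arginine methylation 13 were detected (86.7%, beside 73.5% of all protein-coding genes). MAT2A, which makes the methyl donor, led with 87.7 RPKM, and PRMT1, the main type I methyltransferase, had 41.6 in both libraries. PRMT5, the main type II enzyme, stood at 8.30 and 8.42, CARM1 at 7.56, and WDR77, the PRMT5 partner, at 4.70. PRMT6 and PRMT8 had no count over 4335 and 6644 exon bases. All 8 genes of Sm proteins, which PRMT5 methylates, were detected, with SNRPB highest at 49.8 RPKM. SNRPN was lowest at 0.47.

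Long noncoding RNAs of the nucleus were among the most transcribed genes. MALAT1, a nuclear speckle RNA (chromosome 11, 65497688 to 65506516), had 23595 and 26418 counts, or 605 and 693 RPKM. NEAT1, the scaffold of paraspeckles, had 15529 and 16574 counts, or 155 and 169 RPKM, and SNHG3, a snoRNA host, had 169 RPKM. Among small RNAs transcribed by RNA polymerase III, RN7SL2 had 6652 and 5815 counts, while of 10 countable genes on the list only 3 were detected. RNY3 had no count and VTRNA1-1, a vault RNA, had 12 and 6. Short genes yield few exon bases, and such small RNAs have many copies in the genome.

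Families known for restricted expression differed in how many members were detected. Of 384 countable olfactory receptor genes 8 were detected and 296 had no count. OR10AD1 was highest, with 59 and 89 counts. Of 94 keratin-associated protein genes, expressed in hair, 1 was detected and 71 had no count. Type 2 taste receptors, which sense bitter compounds, were detected in 8 of 24 cases (33.3%), and 9 had no count. Clustered protocadherins, neuronal adhesion proteins, were detected in 41 of 53 cases (77.4%, beside 73.5% of all protein-coding genes) with none at 0, but their median was 0.69 RPKM and 50 of them share exon sequence with another gene. The longest run of neighbouring protein-coding genes without counts held 35 genes on chromosome 21 (29657406 to 31038476), of which 33 were keratin-associated. The next held 33 on chromosome 11 (50279828 to 56276819), of which 31 were olfactory receptors. The third held 32 on chromosome 1 (152776372 to 153500764), of which 7 were late cornified envelope genes, named LCE. HOX genes were detected in 35 of 39 cases (89.7%), led by HOXB7 (44.0 RPKM) and HOXB8 (34.6). Solute carriers were detected in 243 of 334 cases (72.8%, close to the 73.5% of all protein-coding genes), with a median of 2.16 RPKM. Cytochrome P450 genes were detected in 29 of 55 cases (52.7%), with a median of 0.33 RPKM and CYP24A1 at 238. Zinc finger genes stood close to the average gene, with 414 of 508 detected and a median of 3.53 RPKM.

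Across all 48 lists and families, 31 had a median above that of protein-coding genes. The count was 30 in library 2 alone and 31 in library 1 alone. When counts were taken per kilobase of gene span, 31 lists again lay above, but goblet, ciliated and RNA polymerase III lists moved up across the line and mesenchymal, erythroid and neuronal markers down. Ciliated markers went from 0.73 to 3.43 times the protein-coding median and neuronal markers from 1.01 to 0.16 times. The lists were picked with earlier results of these data known, so the count describes them and does not test them.

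**Figure D4:**
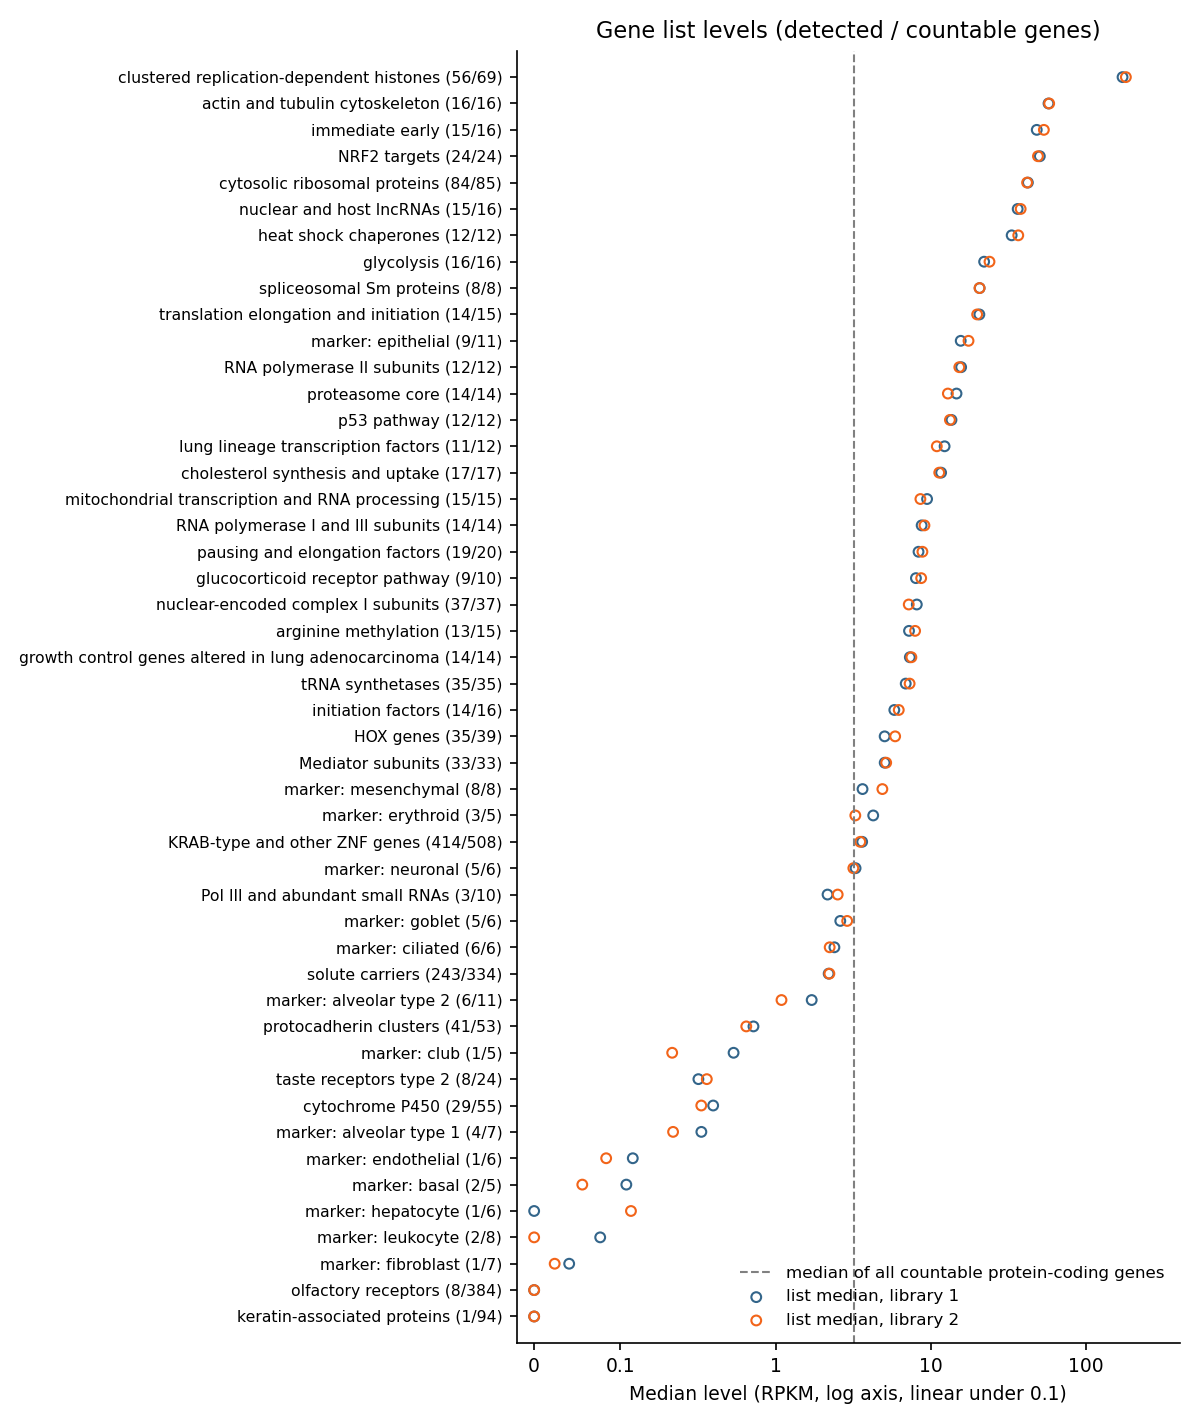
Median level (RPKM, log axis, linear under 0.1) of 48 gene lists in library 1 and library 2, with detected over countable genes in parentheses; the dashed line is the median of all countable protein-coding genes, 3.18. Histones are highest at 171 and 180, olfactory receptor and keratin-associated genes lie at 0, and the libraries lie apart mainly for lists near 0.

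A run of genes on chromosome 9 around CDKN2A had no counts. CDKN2A encodes the cell cycle inhibitor p16 and the p53 stabiliser p14ARF, CDKN2B encodes the related p15, and A549 is known to have lost CDKN2A. The 8 neighbouring countable genes from AL359922.2 to CDKN2B, with CDKN2A-DT and CDKN2B-AS1 among them (21858910 to 22121097), had 0 counts in both libraries over 21582 exon bases shared with no other gene. On one side, the last genes with counts were TUBB8P1 with 61 and 45 and MTAP with 199 and 194, whose gene body runs into the stretch. On the other side UBA52P6, a pseudogene within the span of CDKN2B-AS1, had 0 and 1, AL157937.1 had 14 and 18, and DMRTA1 had 80 and 82. Lack of DNA and lack of transcription cannot be told apart in these counts. Of the 16 protein-coding type I interferon genes that lie beside the stretch, 12 had no count. IFNE was the one detected, with 14 and 8 counts, and IFNA1 had 7 and 3. KLHL9 among them had 162 and 180 counts and MIR31HG 267 and 302.

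**Figure D5:**
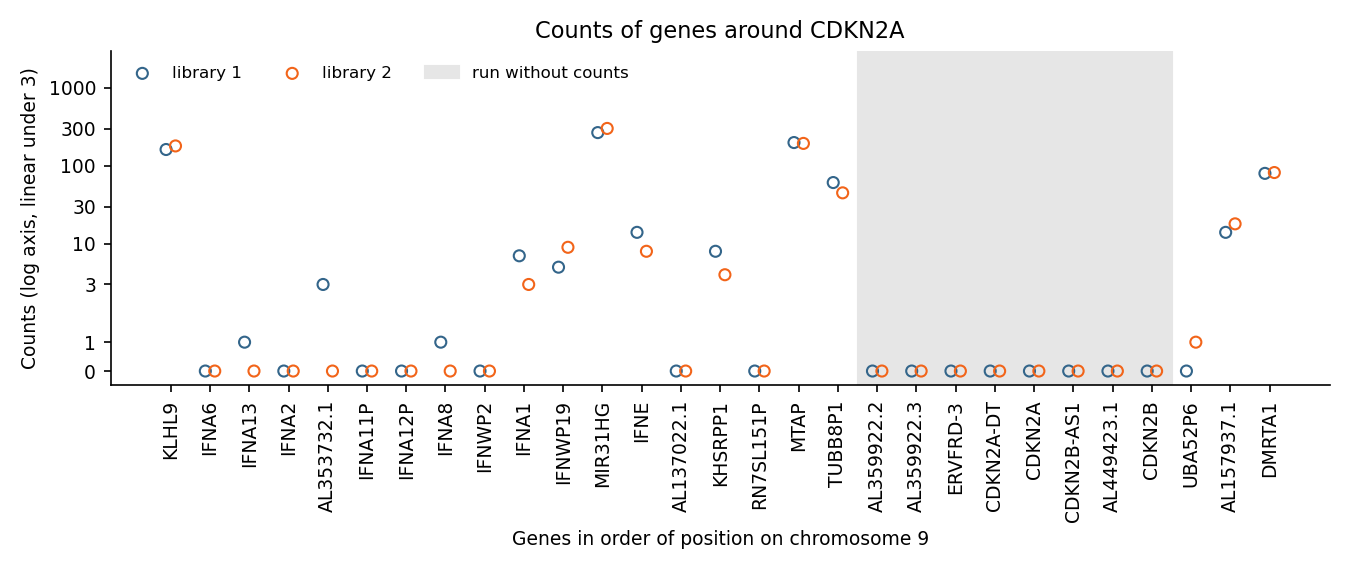
Counts (log axis, linear under 3) in library 1 and library 2 of genes with at least 100 unshared exon bases from KLHL9 to DMRTA1, in order of position; grey marks the run without counts around CDKN2A. MTAP, with 199 and 194, starts before the run and its gene body extends into it. DMRTA1, with 80 and 82, lies beyond the run.

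The libraries agreed closely, with small differences beyond counting error. Among 20261 genes with a summed count of at least 20, a two-sided exact binomial test with Benjamini-Hochberg adjustment called 95 genes (0.469%) with the adjusted p limit set at 0.05. Library 1 was the higher in 42 of them and library 2 in 53. That balance changed when mitochondrial, copied and ribosomal DNA genes were left out of the test and its totals. Then 37 genes were called, with library 1 the higher in 26 and library 2 in 11. Among all 20261 genes, 1759 (8.68%) had an unadjusted binomial p under 0.05. The chi-square per degree of freedom over these genes was 2.15, and 1.37 without mitochondrial, copied and ribosomal DNA genes, where counting error alone gives about 1. Both measures treat reads as independent and compare these libraries, not conditions. Whether the libraries are separate preparations was not tested. Called genes comprised 49 protein-coding, 16 mitochondrial, 13 of the ribosomal DNA stretch, 11 long noncoding, 5 nuclear copies and 1 small RNA gene.

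Among called genes with at least 100 counts on average, ARL1, a Golgi GTPase (chromosome 12), was furthest apart in favour of library 1, with 153 against 80 counts. Its ratio of library 1 to library 2 was 1.87 (95% exact interval 1.42 to 2.48, exact binomial adjusted p 0.0019). ANAPC16, a subunit of the anaphase-promoting complex, with 151 against 81 counts, and DNAJC30, with 164 against 97, had ratios of 1.82 and 1.65. In favour of library 2 were AC092135.3 (74 against 131 counts, 1.81-fold), PMM2, a mannose metabolism enzyme (157 against 239, 1.56-fold), and ICMT, a protein methyltransferase of isoprenylated proteins (295 against 390, 1.35-fold).

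The spread narrowed with level. From 1 to 5 CPM (2015 genes) the median gene differed 1.37-fold between the libraries and 95% of genes lay within 3.07-fold. From 10 to 50 CPM (6773 genes) these values were 1.11-fold and 1.38-fold, and above 100 CPM (1687 genes) 1.05-fold and 1.16-fold. These genes are not all of the detected ones. The biological coefficient of variation estimated by edgeR over 19332 genes was 0.0425.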

How the data were processed

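Nascent RNA was measured by PRO-seq in 2 untreated A549 libraries, grouped by the labels. The authors deposited whole-number read counts per gene for 14 libraries, made with featureCounts 2.0.1 (Subread) on hg38 per the submitters' processing notes; the aligner, strand setting and treatment of duplicates are not given in the sources used here. The 6 deposited tables of the authors' DESeq2 comparisons were not used.

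All 58780 identifiers matched GENCODE release 29, which gave exons, coordinates and the 22731 symbols that the table leaves blank. Counts were scaled per 1000000 counts outside the mitochondrial chromosome (CPM) and per kilobase of merged exons (RPKM). A gene was detected at 1 CPM or more in both libraries. The libraries were compared with a two-sided exact binomial test (SciPy 1.17.1) and by edgeR 4.0.16 (R 4.3.3) for the dispersion with TMM scaling. Both were tested on simulated data. Promoters came from RefSeq (GRCh38.p14), matched by symbol, chromosome and strand.

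Genes named are, by rule, the 10 highest protein-coding genes by level (at least 500 exon bases, none shared) and by CPM, the 3 highest of a class, the 4 highest of a list and its members at 0, all mitochondrial genes, the genes around CDKN2A, the longest silent runs, and the 3 largest called library ratios in each direction (mean of at least 100 counts). Some list members outside the rule, such as CDH1, EPCAM, NKX2-1, PRMT5 and CDKN1A, were named after their values were seen, as known markers. The members and lists were chosen with earlier results of these data known. Alternatives were other detection limits, totals, lengths and scalings, and each library alone.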

Additional observations from a re-analysis of the deposited data

How the results depend on the processing

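No paired analysis was possible because a single group was described and no result comes from a test between groups. Of the class shares, leaving out genes that share exon sequence put nuclear copies at 4.68%, the ribosomal DNA stretch at 19.1%, protein-coding genes at 64.3% and long noncoding genes at 7.20% of non-mitochondrial counts. With totals that also leave out the copies and the ribosomal DNA, an alternative chosen after seeing the data, protein-coding genes held 85.0% and long noncoding genes 11.1%. Without mitochondrial, copied and ribosomal DNA genes, also added later, 37 genes differed between the libraries in place of 95. Of these 37, 26 were higher in library 1 and 11 in library 2, in place of 42 and 53. TMM scaling gave 91 genes, DESeq2 size factors 76 and no count minimum 77. Detected genes numbered 24801 at 0.5 CPM, 19945 at 2 CPM, 22609 at 1 RPKM, 19500 on totals of all counts and 23516 on the totals without copies and ribosomal DNA. Each library alone gave 23730 to 23934 detected genes, a mitochondrial share of 53.8% to 54.0%, and shares of 69.7% to 70.6% for protein-coding genes, 9.10% to 9.16% for long noncoding genes, 9.27% to 10.4% for the ribosomal DNA stretch and 7.51% to 7.64% for the copies. The coefficient of variation stayed between 0.0410 and 0.0432. The libraries number 2, strand was not resolved, and reads of near-identical copies cannot be placed, which limits the values of single genes in those families. The 0 of a gene allows up to 3 counts.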
